A study of Mus musculus with 3 samples.

Results

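Testis histone variants and chromatin factors are described here by 9 genes, taken by symbol from the 31053 genes of the count matrices. They are the linker histones Hist1h1t, H1fnt and Hils1, the testis H2A and H2B histones Hist1h2aa and Hist1h2ba, the replacement histones H2afx, H2afz and H3f3b, and the bromodomain gene Brdt. The series is single-cell RNA-seq of testicular cells from adult C57BL/6 mice, 8 weeks old by the labels, with 1 library per genotype. WT mice were compared with GRTH-KO mice (KO) and GRTH-KI mice (KI). KO mice lack the testis RNA helicase GRTH, the product of Ddx25. By the study, KI mice carry the human GRTH gene with an arginine to histidine mutation. This mutation abolishes the phosphorylated form and leaves the non-phosphorylated form. The labels name no other allele or treatment. The sources differ on the animals. The labels give 1 mouse per genotype, while the study's methods give testes pooled from a pair of mice per group and a wider range of adult ages. Either way each genotype is 1 library, in which animals cannot be told apart.

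During meiosis and spermiogenesis the nucleosomes of the germ cell are rebuilt. Spermatocytes load testis-specific H1, H2A and H2B histones beside the somatic ones. Spermatids then acetylate and remove nearly all histones, place transition proteins and finally protamines on the DNA, and stop transcription as the nucleus condenses. Linker histones of the spermatid (H1fnt, Hils1) appear late in this sequence, and BRDT, a reader of acetylated histones, is needed for the removal of histones.

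Spermatocytes (SP), round spermatids (RS) and elongating spermatids (ES) were named from clusters by markers that include no member, and the names carry "-like" because they were rebuilt from the matrices. There were 1002 SP-like cells in WT, 853 from KO and 380 from KI. RS-like cells numbered 1003, 959 and 364, and ES-like cells numbered 2444, 464 and 176. Levels are unique molecular identifiers (UMIs) summed over the cells of a class, as counts per 1e6 UMIs of that class (CPM), with a 95% exact Poisson interval. The assay counts transcript ends, so a level is not divided by gene length and is compared only within a gene. A level covers only the transcripts that the assay captures. Whether the captured share of a histone RNA differs between classes or libraries was not tested. A ratio is log2 of mutant over WT after adding 1 CPM to both, and its 95% interval, like every other here, covers counting error only. With 1 library per genotype there are no replicates, so no difference was tested, and "2-fold" below marks size alone.

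The 3 libraries held 73150373 to 91388296 UMIs, with 1573 (KI) to 5869 (WT) cells kept and a median of 3951 to 11735 UMIs per cell. Between 8 and 37 cell barcodes were shared by a pair of libraries. Ddx25, the targeted gene, stood at 216 CPM in WT against 0.391 in KO and 88.9 in KI SP-like cells, so the KO library carried its label. The KI level was above WT in RS-like (136 against 116 CPM) and ES-like cells (95.5 against 28.8 CPM). Reads were aligned to the mouse genome, and how those of the human gene in KI are counted there was not tested. The shallow cluster 8 held 540 of the 1002 WT SP-like cells, against 194 of 853 KO and 120 of 380 KI cells. ES-like cells differed in makeup. The study reports that KO and KI germ cells stop at round spermatids, without distinct elongated ones. KO and KI cells of this class are thus ES-like by markers only. Cluster 3, the latest in pseudotime, held 1153 WT cells against 9 KO and 6 KI cells, and most KO and KI ES-like cells (288 of 464 and 122 of 176) were in cluster 7, the earliest of the class, which held 456 of 2444 in WT. Without integration of the libraries only 10 KO and 10 KI cells were named ES-like. A cluster of 1 WT, 347 KO and 120 KI cells was then left unnamed, with marker scores of 0.69 for ES and 0.47 for RS. Its leading genes included Scp2d1, Banf2 and Cypt4, as did those of cluster 7, so WT and mutant cells share cluster 7 after integration only. The median log2 ratio over all genes with a mean of at least 10 CPM was -0.01 (KO) and 0.04 (KI) in SP-like, 0.19 and 0.20 in RS-like, and 1.08 and 1.06 in ES-like cells. Ratios of H1fnt, Hils1, H2afz, H3f3b and Brdt in ES-like cells are therefore also given after TMM scaling, which trims extreme genes, and can be read against that median.

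The upstream sequences of 5 members are shown because their genes fall into 3 patterns described below. These are early genes (Hist1h2aa, Hist1h1t), late linker histones (H1fnt, Hils1) and H3f3b, which in WT has a maximum in an early cluster and another in round spermatids. Each is the 250 bases before the RefSeq start on GRCm38.p6, read 5′ to 3′ on the gene's strand. For H3f3b, which has 4 annotated transcripts, this stretch lies inside the annotated gene (chr11:116021912-116027962). Capitals mark the motifs searched on both strands, which were the octamer ATTTGCAT, the CCAAT box, the TATA box TATAAA, the cAMP response element TGACGTCA and its core TGACG. RefSeq symbols were found for 9 of the 9 members and an upstream sequence for 8.
Hist1h2aa, chr13:23934187-23934436, plus strand: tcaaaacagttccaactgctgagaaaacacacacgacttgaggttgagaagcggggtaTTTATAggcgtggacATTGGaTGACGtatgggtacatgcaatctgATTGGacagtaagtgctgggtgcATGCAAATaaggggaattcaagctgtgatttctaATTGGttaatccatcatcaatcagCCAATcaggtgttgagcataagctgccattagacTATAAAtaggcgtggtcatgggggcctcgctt
Hist1h1t, chr13:23695561-23695810, plus strand: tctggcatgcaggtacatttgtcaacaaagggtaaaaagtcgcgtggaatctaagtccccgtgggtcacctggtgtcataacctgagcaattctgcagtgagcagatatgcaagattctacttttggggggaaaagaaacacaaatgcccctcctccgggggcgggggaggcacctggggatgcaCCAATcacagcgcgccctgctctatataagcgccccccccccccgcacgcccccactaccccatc
H1fnt, chr15:98257308-98257557, minus strand: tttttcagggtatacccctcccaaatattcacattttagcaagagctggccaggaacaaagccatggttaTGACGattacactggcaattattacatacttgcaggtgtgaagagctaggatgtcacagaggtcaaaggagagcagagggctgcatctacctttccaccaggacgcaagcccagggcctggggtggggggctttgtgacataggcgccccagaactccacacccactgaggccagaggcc
Hils1, chr11:94967343-94967592, plus strand: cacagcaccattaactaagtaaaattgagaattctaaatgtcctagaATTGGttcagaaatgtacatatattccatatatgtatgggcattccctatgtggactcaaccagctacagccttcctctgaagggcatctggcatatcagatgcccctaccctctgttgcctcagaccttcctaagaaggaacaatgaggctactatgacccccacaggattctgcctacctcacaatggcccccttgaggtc
H3f3b, chr11:116024505-116024754, minus strand: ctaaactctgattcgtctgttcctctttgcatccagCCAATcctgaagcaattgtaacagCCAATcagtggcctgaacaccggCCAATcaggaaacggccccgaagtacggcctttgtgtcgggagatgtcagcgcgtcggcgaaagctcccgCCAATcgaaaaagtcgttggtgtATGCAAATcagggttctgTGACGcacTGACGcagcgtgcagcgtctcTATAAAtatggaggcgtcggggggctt

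The Hist1h2aa sequence also serves Hist1h2ba. The 2 genes lie back to back on chromosome 13 with RefSeq starts 281 bases apart, and 220 of the 250 bases upstream of each are shared. The shared stretch holds the octamer, which 1.60% of 32851 upstream sequences of that length held, and 4 CCAAT boxes, which 33.8% held at least once. The octamer and 4 CCAAT boxes were also upstream of the RefSeq start of H3f3b. A match is a description of letters, not of a bound site. TATAAA was found in 12.4% and TGACG in 17.8% of the upstream sequences. The full TGACGTCA was found in 1.55% of them and in 0 of the 8 members' sequences. By the annotation of the same build, Hist1h2ba lies at chr13:23933773-23934156 and Hist1h2aa at chr13:23934462-23934851. H2afx lies at chr9:44334694-44336077, H2afz at chr3:137864487-137866922 and H3f3b at chr11:116021912-116027962. Hist1h1t, Hist1h2ba, Hist1h2aa, H1fnt, Hils1 and H2afx each have 1 exon. Hils1 (chr11:94967593-94968456) overlaps Sgca on the opposite strand, Brdt (chr5:107331159-107387058) a pseudogene, and Hist1h2aa and H2afx each an annotated miRNA gene on the opposite strand.

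**Figure D1:**
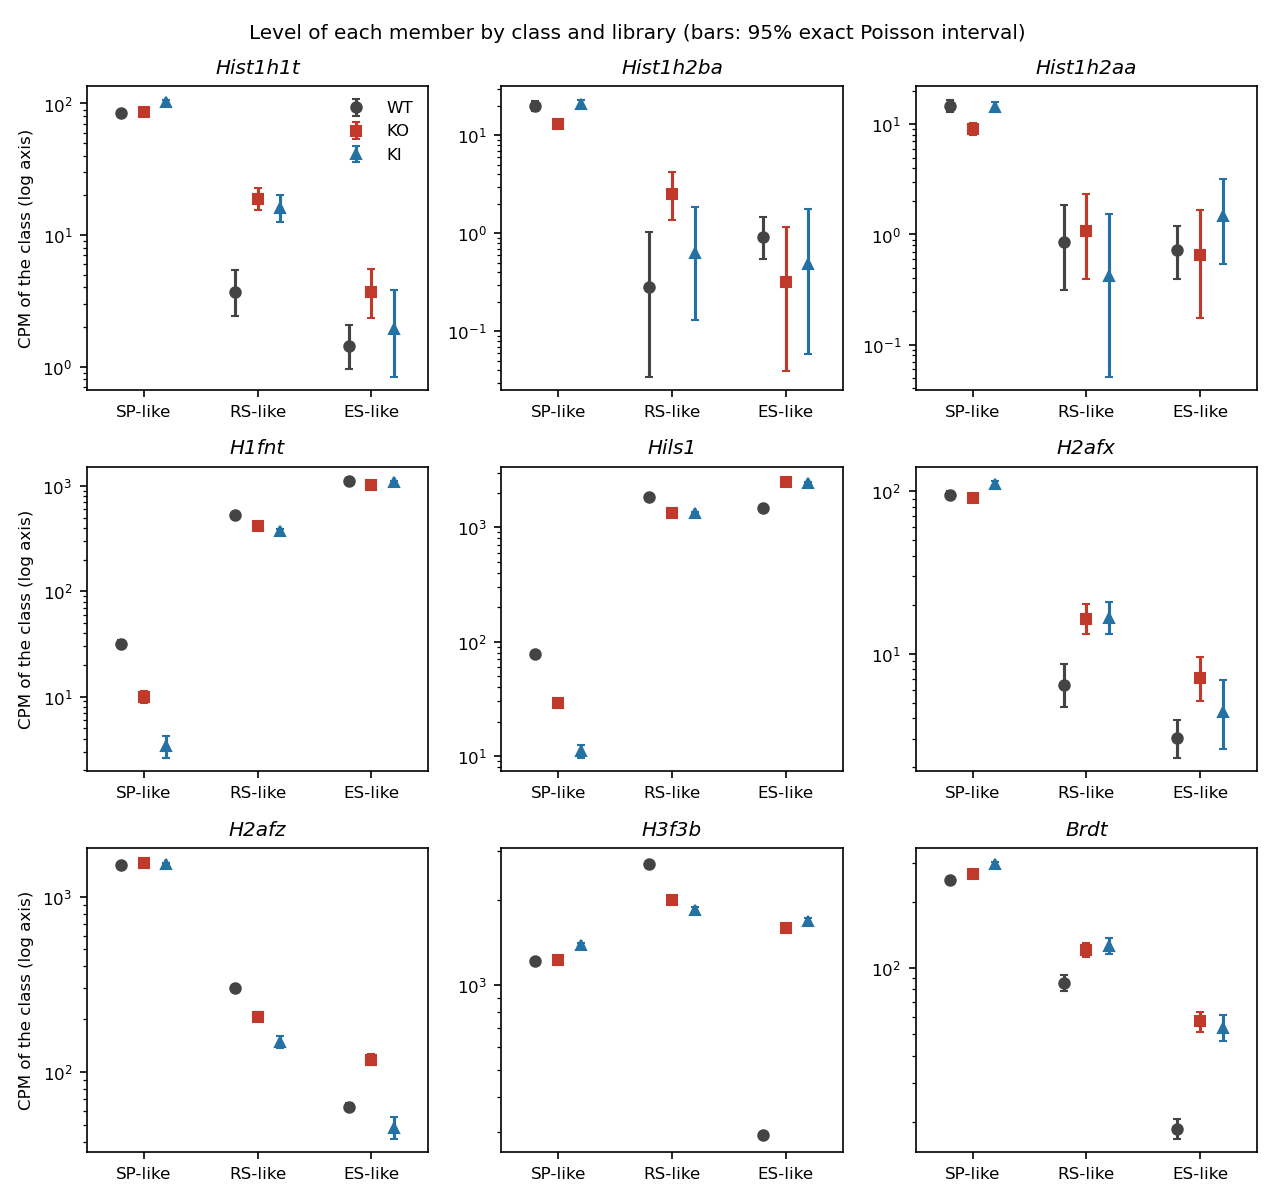
Level of each member (CPM, log axis) in SP-like, RS-like and ES-like cells of the WT (circles), KO (squares) and KI (triangles) libraries, with 95% exact Poisson intervals as bars. H3f3b stands at 292 CPM in WT ES-like cells against 1594 in KO and 1684 in KI, and H1fnt and Hils1 in SP-like cells are ordered WT, KO, KI.

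The first linker histone of the sequence, Hist1h1t (chr13:23695814-23696725), encodes H1t, which replaces part of the somatic H1 in mid to late spermatocytes. It stood at 84.0 CPM (1327 UMIs) in WT against 85.5 in KO and 102 in KI SP-like cells. The log2 ratio was 0.02 (-0.07 to 0.12) for KO and 0.28 (0.18 to 0.38) for KI, so over the class the KI level lay above WT beyond counting error but well short of 2-fold. Within the class its level was highest in cluster 6 (117.6, 117.1 and 126.1 CPM), with Piwil1 among its leading genes, and lower in cluster 11, with Aurka among its leading genes (11.5, 24.3 and 9.25). Within cluster 6 the KI ratio was 0.10 (-0.0022 to 0.20), within cluster 8 it was 0.57 (0.07 to 1.07) and within cluster 11 it was -0.29 (-0.90 to 0.32), so only the interval of cluster 8 excluded 0. In RS-like cells it was 3.71 CPM (26 UMIs) in WT against 18.9 (106 UMIs) in KO and 16.1 (76 UMIs) in KI, which made the log2 ratios 2.08 (1.55 to 2.61) and 1.86 (1.30 to 2.41). Empty barcodes, the droplets of free RNA, held 13.0, 22.8 and 27.8 CPM, but a level under theirs does not by itself make it free RNA, which is only part of what a cell's droplet holds. With each cell thinned to 2000 UMIs, 1.2% of WT, 3.68% of KO and 2.59% of KI RS-like cells held a Hist1h1t UMI, against 3.45%, 5.04% and 6.25% of Sertoli-like cells, which should lack the gene. Thinning left out 504, 524 and 132 RS-like and 124, 231 and 91 Sertoli-like cells with fewer UMIs. Unthinned, the shares were 2.39%, 7.82% and 13.7% in RS-like and 6.16%, 10.0% and 10.97% in Sertoli-like cells. The median depths before thinning were 1983, 1821 and 3033 UMIs in RS-like and 1500, 1358 and 1462 UMIs in Sertoli-like cells. The thinned shares were thus not above those of Sertoli-like cells. RS-like cells held 26, 106 and 76 Hist1h1t UMIs, beside 6, 6 and 2 of Hist1h2aa and 45, 92 and 79 of H2afx. Empty barcodes held 107, 204 and 213 of Hist1h1t, beside 110, 66 and 214 of Hist1h2aa and 227, 450 and 363 of H2afx. In the deep RS-like cluster 10 alone Hist1h1t stood at 3.85, 21.4 and 17.8 CPM, with log2 ratios of 2.21 (1.62 to 2.80) and 1.958 (1.35 to 2.57). The RS-like RNA of Hist1h1t is therefore given as a level, and its source was not tested.

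H1fnt (chr15:98255986-98257293) and Hils1 encode linker histones of the spermatid. H1fnt was at 532 CPM in WT RS-like cells, 419 in KO and 375 in KI, and at 1105, 1023 and 1080 CPM in ES-like cells. Hils1 was at 1828, 1339 and 1337 CPM among RS-like cells but at 1479, 2500 and 2449 in ES-like cells. After thinning, 56.5%, 40.7% and 40.5% of RS-like cells held an H1fnt UMI, above the 31.0%, 18.5% and 14.1% of Sertoli-like cells. Unthinned, the H1fnt shares were 60.9%, 45.9% and 60.4% in RS-like and 28.9%, 27.7% and 18.7% in Sertoli-like cells. In RS-like cells both genes were lower in both mutants, by less than 2-fold. The log2 ratios were -0.35 (-0.42 to -0.27) and -0.51 (-0.59 to -0.42) for H1fnt and -0.45 for Hils1 in KO and in KI. Hils1 was held by 89.6%, 78.9% and 71.1% of thinned RS-like cells against 40.2%, 47.9% and 32.8% of Sertoli-like cells. Empty barcodes held 491, 349 and 460 CPM of H1fnt and 1580, 1217 and 1484 CPM of Hils1, so they too were lower in KO and KI than in WT, and the KI levels of both genes in RS-like cells lay under them. The part of free RNA in the RS-like ratios was not tested. Over the clusters with at least 20 cells both genes had their KO and KI maximum in cluster 7, where Hils1 stood at 2774 CPM in WT against 2588 in KO and 2487 in KI. Later in pseudotime the WT level of Hils1 was 1034 CPM in cluster 5 and 190 in cluster 3, while KO and KI cells of cluster 5 held 1525 and 1709. The KO and KI cells of cluster 5 were shallow, with a mean of 2851 and 1463 UMIs against 9711 in WT. The ES-like ratio of Hils1, 0.76 in KO and 0.73 in KI, lay under the all-gene median by 0.33 in both and was -0.34 and -0.35 under TMM scaling, so its direction depends on the scaling. H1fnt lay at -0.11 and -0.03, and at -1.20 and -1.11 under TMM scaling.

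In SP-like cells H1fnt and Hils1 were the members at least 2-fold lower in the mutants. H1fnt stood at 31.4 CPM (496 UMIs) in WT against 9.90 (253) in KO and 3.36 (73) in KI, and the log2 ratios were -1.57 (-1.78 to -1.37) and -2.89 (-3.18 to -2.60). Hils1 stood at 77.7 CPM in WT against 29.0 in KO and 11.1 in KI, with log2 ratios of -1.39 (-1.52 to -1.26) and -2.71 (-2.90 to -2.52). They were the 2 of 9 members at least 2-fold lower, with 0 higher, where 1.91% (KO) and 2.69% (KI) of 7797 genes were at least 2-fold lower and 0.0898% and 0.128% higher.

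Several values moved with this difference. The SP-like levels lay far under those of the empty barcodes given above. Sertoli-like cells, whose cluster was also led by the immune genes Apoe, Cd74 and Lyz2 and which should lack both histones, held 171, 167 and 215 CPM of H1fnt and 355, 413 and 590 CPM of Hils1. The mean depth of SP-like cells was 15758 UMIs for WT against 29958 in KO and 57132 in KI. The summed level of the 14 ES markers in SP-like cells was 5381 CPM in WT against 461 in KO and 204 in KI, and that of the 14 RS markers 208, 127 and 73.2, with no marker of either list at 0. In CPM the WT excess was largest in the shallow cluster 8, where Hils1 stood at 433, 237 and 79.4 CPM, but was present in the deep cluster 6 at 32.0, 19.7 and 8.49 CPM. After thinning, which left out 322, 88 and 16 SP-like cells, 7.94%, 3.01% and 1.10% held an H1fnt UMI, against 31.0%, 18.5% and 14.1% of Sertoli-like cells. For Hils1 the thinned shares were 17.6%, 8.63% and 7.69% in SP-like and 40.2%, 47.9% and 32.8% in Sertoli-like cells. Unthinned, 19.1%, 19.7% and 15.8% of SP-like cells held an H1fnt UMI and 49.3%, 45.6% and 41.6% a Hils1 UMI. Over the class, the shares of both genes lay below those of Sertoli-like cells. They are not read as expression in spermatocytes, and their source was not tested. WT cells of cluster 8 were not below them for Hils1, with 43.1% (36.4 to 49.98) of thinned cells against 40.2% (29.9 to 51.3). Scrublet marked 40 of 1002 WT, 2 of 853 KO and 4 of 380 KI SP-like cells as doublets. Without the marked cells the ratios were -0.74 (KO) and -2.02 (KI) for H1fnt and -0.91 and -2.22 for Hils1, so the KO differences were then under 2-fold. The part of free RNA, depth and doublets in these ratios was not separated. When barcodes that were not called as cells were added, the ratios were 0.84 (KO) and 0.08 (KI) for H1fnt and 1.06 and 0.20 for Hils1. Over all classes these were 2185 WT, 18856 KO and 5021 KI barcodes, against 5869, 4074 and 1573 kept cells, so this alternative changed KO most.

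**Figure D2:**
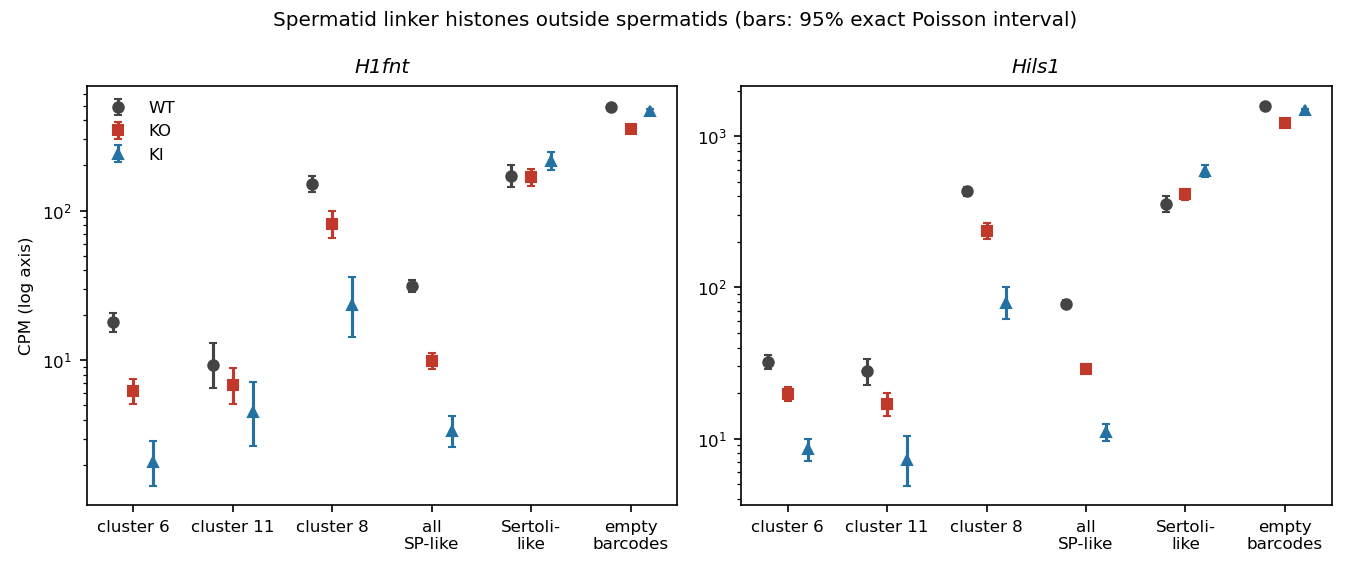
H1fnt and Hils1 (CPM, log axis) in the 3 SP-like clusters, in all SP-like cells, in Sertoli-like cells and in empty barcodes of the WT (circles), KO (squares) and KI (triangles) libraries, with 95% exact Poisson intervals. The SP-like levels lie under those of the empty barcodes and, in the deep clusters 6 and 11, under those of Sertoli-like cells.

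Hist1h2aa and Hist1h2ba encode the testis H2A and H2B variants that form nucleosomes in spermatocytes and are kept until histone removal. Both had their highest level in cluster 12, which was left unnamed and is outside the SP-like class. Its score for spermatogonial markers, 1.24, led that for spermatocyte markers, 0.96, by under 0.3, without a spermatogonial marker among its 10 leading genes. At a clustering resolution of 0.6 an SP-like cluster of 304 cells was led by Dazl, Sycp1 and Tex101, apart from a spermatogonia-like cluster of 87 cells. In cluster 12 Hist1h2aa stood at 237 CPM in WT (266 UMIs) against 300.5 in KO (413 UMIs) and 295 in KI (437 UMIs). Hist1h2ba stood at 119, 94.6 and 101 CPM. The log2 ratio of Hist1h2aa in cluster 12 was 0.34 (0.11 to 0.57) for KO and 0.31 (0.09 to 0.54) for KI, and that of Hist1h2ba was -0.32 (-0.68 to 0.03) and -0.22 (-0.57 to 0.12). The ratios of these neighbours thus had opposite signs in cluster 12, but only the intervals of Hist1h2aa excluded 0.

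In SP-like cells as a class Hist1h2aa was at 14.7, 9.12 and 14.4 CPM and Hist1h2ba at 19.8, 13.2 and 21.0 CPM. The KO levels were lower by log2 ratios of -0.63 (-0.88 to -0.39) and -0.56 (-0.77 to -0.34), and the KI intervals included 0. Empty barcodes held 13.3, 7.39 and 27.9 CPM of Hist1h2aa and 8.49, 7.16 and 14.6 CPM of Hist1h2ba. In the same SP-like cells H1fnt, far more abundant in empty barcodes (491, 349 and 460 CPM), was at 31.4, 9.90 and 3.36 CPM. After thinning, 4.12%, 3.66% and 4.95% of SP-like cells held a Hist1h2aa UMI, against 4.60%, 2.52% and 1.56% of Sertoli-like cells. The part of free RNA in these levels was not tested. The KO ratio of Hist1h2aa was -0.22 with equal weight per cluster and -0.13 at a clustering resolution of 0.6. In RS-like cells Hist1h2ba had 2 UMIs in WT against 14 in KO and 3 in KI, and Hist1h2aa had 6, 6 and 2. These counts are too few to order WT and KI. The KO ratio of Hist1h2ba was 1.45 (0.56 to 1.88), on a level of 2.5 CPM that was under that of empty barcodes. Across the 13 WT clusters of at least 20 cells the pair had a Pearson r of 0.92, a description over clusters of 1 library.

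**Figure D3:**
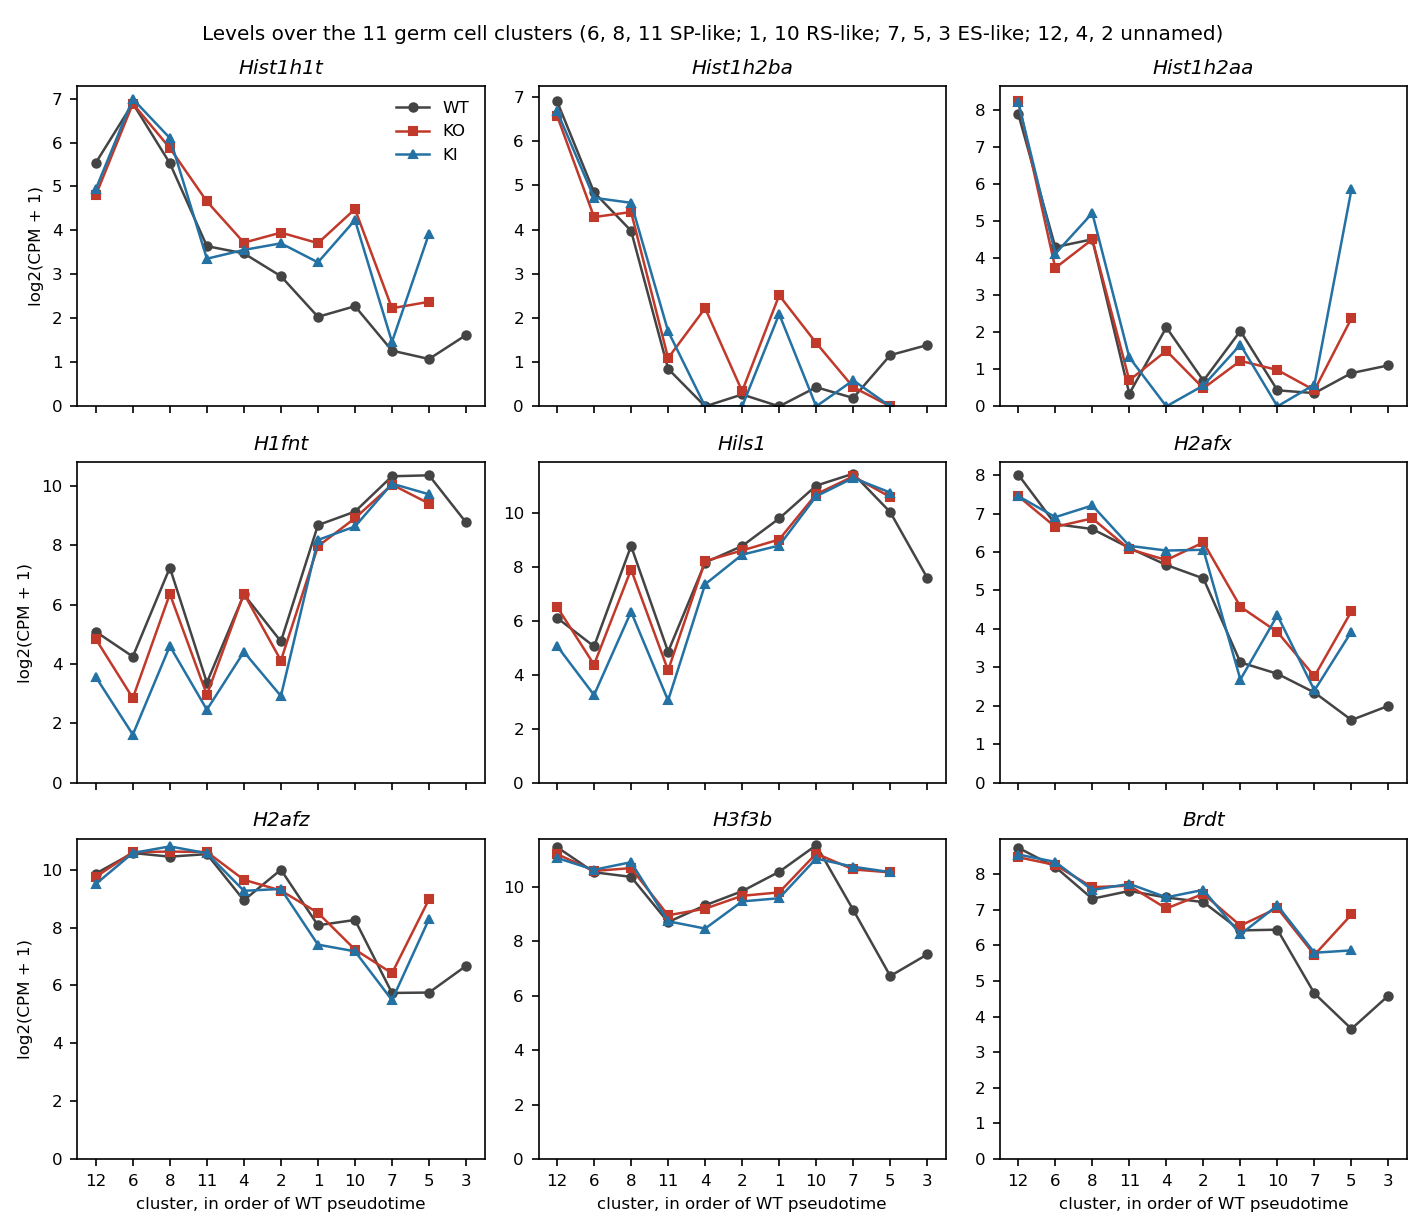
Level of each member as log2(CPM + 1) over the 11 germ cell clusters in order of WT pseudotime, for WT (circles), KO (squares) and KI (triangles). Clusters with under 20 cells in a library are left out. Hist1h2aa and Hist1h2ba peak in cluster 12, H1fnt and Hils1 in clusters 7 and 5, and H3f3b is low in cluster 11 and, in WT, after cluster 10. The high KI point of Hist1h2aa in cluster 5 rests on 4 UMIs.

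H2afx encodes H2A.X, which is phosphorylated at DNA breaks and on the sex chromosomes of pachytene spermatocytes. It was highest in cluster 12 (257, 174 and 174 CPM) and stood at 95, 90.1 and 111 CPM in SP-like cells, where the ratios were -0.08 (-0.17 to 0.02) for KO and 0.22 (0.13 to 0.32) for KI. In cluster 2, which follows the late spermatocytes in pseudotime and was left unnamed, it stood at 38.7 CPM in WT (377 UMIs) against 75.0 in KO (560 UMIs) and 65.6 in KI (549 UMIs). The log2 ratios there were 0.94 (0.75 to 1.12) and 0.74 (0.56 to 0.93). Empty barcodes held 27.5, 50.4 and 47.4 CPM of H2afx, in the same order of WT against mutant. Hist1h1t stood at 6.78, 14.5 and 12.1 CPM in cluster 2. In RS-like cells H2afx was at 6.42, 16.4 and 16.7 CPM, with ratios of 1.23 (0.76 to 1.71) and 1.25 (0.76 to 1.75), on levels under those of empty barcodes. In ES-like cells it was at 3.02, 7.09 and 4.37 CPM and Hist1h1t at 1.43, 3.71 and 1.94 CPM, also under them.

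H2afz encodes H2A.Z, a replacement H2A found at promoters. Its SP-like level was nearly the same in the 3 libraries at 1504, 1562 and 1538 CPM, with ratios of 0.05 (0.03 to 0.08) and 0.03 (0.01 to 0.06). In the unnamed cluster 4 it was higher in the mutants, at 492, 804 and 617 CPM. In clusters 2 and 10 it was lower in both. In cluster 2 it stood at 1024 CPM in WT against 621 in KO and 646 in KI, with log2 ratios of -0.72 (-0.77 to -0.67) and -0.66 (-0.71 to -0.62). In the deep RS-like cluster 10 it stood at 307, 150.4 and 144 CPM, and the ratios were -1.02 (-1.16 to -0.89) and -1.08 (-1.22 to -0.95). Over all RS-like cells the values were 299.8, 207 and 149 CPM, with ratios of -0.53 in KO and -1.0 in KI. The KO value differed between the RS-like clusters, since in the shallow cluster 1 KO stood at 364 CPM against 270 in WT. Empty barcodes held 694, 659 and 558 CPM. In ES-like cells the levels were 63.5, 118 and 48.4 CPM. The KO ratio of 0.88 was -0.20 under TMM scaling, and the KI ratio was -0.39, or -1.45 under that scaling.

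H3f3b, a gene for the replacement histone H3.3, had the largest ratios of the members in ES-like cells. Its level has 2 maxima in WT. It was 2830 CPM in cluster 12, 418 in cluster 11, 2967 in cluster 10, 571 in cluster 7 and 105 in cluster 5. KO and KI had a like course as far as cluster 10 (2398 and 2114 CPM) and then stood at 1602 and 1717 CPM in cluster 7 and 1487 and 1495 CPM in cluster 5. In cluster 7, which held 456 WT, 288 KO and 122 KI cells of close median depth (11328, 12763 and 12232 UMIs) but unequal mean depth (15583, 19739 and 32565 UMIs), the log2 ratios were 1.49 (1.43 to 1.54) and 1.59 (1.53 to 1.64), or 0.97 and 1.06 under TMM scaling. Without that scaling the median over all genes was 0.53 and 0.54. The stage markers moved with it inside cluster 7. The 14 RS markers summed to 2974 CPM in WT against 5837 in KO and 5688 in KI, and the 14 ES markers to 209815, 86077 and 81794 CPM, with no marker of either list at 0. Their part in the H3f3b ratio of cluster 7, and that of joining the libraries by integration, was not tested. After thinning, 33.3% of WT, 89.3% of KO and 80.9% of KI cells of cluster 7 held an H3f3b UMI, and 69.1%, 97.2% and 93.4% without thinning. Thinning left out 42, 8 and 7 cells. Empty barcodes held 1989, 1688 and 1861 CPM, which are shares of the free RNA and not amounts in the droplets of cluster 7. The levels in clusters 7 and 5 lay under those of the empty barcodes in each library. The part of free RNA in this difference was not tested.

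Over all ES-like cells H3f3b stood at 292 CPM (5705 UMIs) in WT against 1594 (9888 UMIs) in KO and 1684 (6930 UMIs) in KI. The log2 ratios were 2.45 (2.40 to 2.49) and 2.52 (2.47 to 2.58), which lay above the all-gene median by 1.36 and 1.47 and above 92.3% and 92.5% of 6719 genes. Under TMM scaling they were 1.36 and 1.45. Leaving out cluster 3, whose cells were nearly all from WT, gave 2.30 and 2.40. Without integration, on 10 KO and 10 KI cells, they were 2.69 and 0.93. In RS-like cells the levels were 2699, 1998 and 1852 CPM, and the ratios had the other sign, at -0.43 (-0.47 to -0.40) and -0.54 (-0.58 to -0.51). That RS-like difference was not kept under every clustering, since it came to 0.02 and -0.05 when the members were kept among the genes used for clustering and to -0.07 and -0.17 without integration.

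Brdt was highest in cluster 12 (426, 354 and 373 CPM) and stood at 251, 268 and 297 CPM in SP-like cells, with ratios of 0.09 (0.03 to 0.15) and 0.24 (0.18 to 0.30). It was at 85.5, 121 and 126 CPM among RS-like cells, where the ratios were 0.49 (0.33 to 0.65) and 0.56 (0.39 to 0.72). In ES-like cells it was at 18.7 CPM in WT against 57.2 in KO and 53.5 in KI, with ratios of 1.57 (1.36 to 1.77) and 1.47 (1.23 to 1.71), or 0.51 and 0.43 under TMM scaling. In cluster 7 the values were 24.1, 52.1 and 54.4 CPM. All RS-like and ES-like levels were under the 106, 146 and 151 CPM of the empty barcodes of their library, and 15%, 20.7% and 17.7% of thinned RS-like cells held a UMI against 13.8%, 24.4% and 12.5% of Sertoli-like cells. Unthinned, the shares were 30.4%, 27.9% and 39.0% in RS-like and 19.4%, 23.7% and 20% in Sertoli-like cells.

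**Figure D4:**
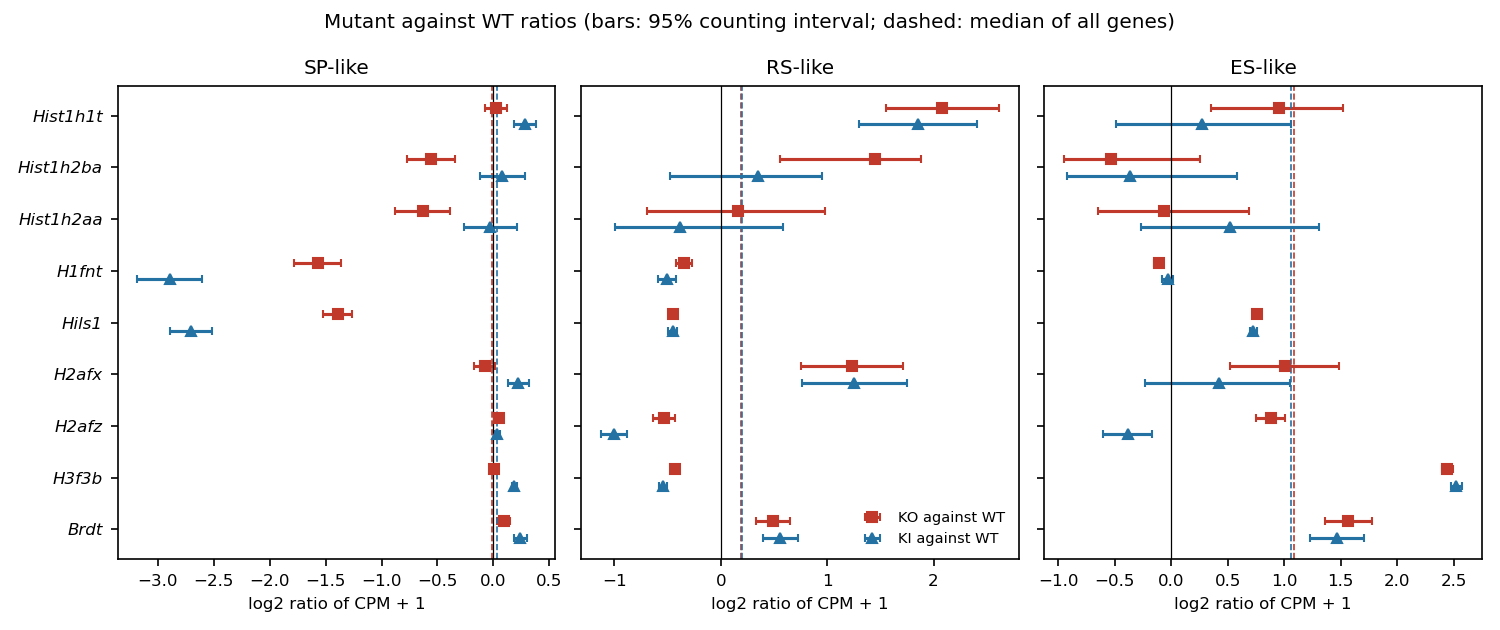
Log2 ratio of each member in KO (squares) and KI (triangles) against WT in SP-like, RS-like and ES-like cells, with 95% counting intervals as bars and the median over all genes as dashed lines. H3f3b lies at -0.43 and -0.54 in RS-like cells and at 2.45 and 2.52 in ES-like cells, and the ES-like medians of all genes lie near 1.

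Counted over the members, SP-like ratios had a median of -0.08 in KO and 0.08 in KI. The RS-like medians over all 9 members were 0.16 and -0.38, both set by Hist1h2aa with its few UMIs, and over the 7 members with a mean of at least 10 CPM they were -0.35 and -0.45. The ES-like medians were 0.88 and 0.42, or 0.88 and 0.73 over the 5 members at that level, under the all-gene medians of 1.08 and 1.06. Of the 7 members in RS-like cells, 2 were at least 2-fold higher in KO and 0 lower, and 2 were higher and 1 lower in KI. The higher genes were Hist1h1t and H2afx in both, and the lower was H2afz. Of 8241 genes 8.58% (KO) and 8.41% (KI) were at least 2-fold higher and 3.35% and 5.11% lower. Of the 5 members in ES-like cells, 2 (H3f3b and Brdt) were at least 2-fold higher and 0 lower in each mutant, where 53.5% (KO) and 52.4% (KI) of 6719 genes were higher and 3.72% and 3.57% lower. A share of 2 in 5 is thus not above the background. These counts are without TMM scaling. Under it H3f3b stayed at least 2-fold higher in both mutants and Brdt did not. H1fnt was then at least 2-fold lower in both mutants, and H2afz in KI. The shares of all genes under that scaling are given in the last section.

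The class totals of marker genes moved with the genotype too. In RS-like cells the summed level of the 16 SP markers was 1659 CPM in WT against 2438 in KO and 2181 in KI, and that of the 14 ES markers was 21331, 8772 and 6871 CPM. In ES-like cells the 14 RS markers summed to 1526, 5650 and 5568 CPM and the 14 ES markers to 286553, 84027 and 84140 CPM. None of the SP, RS or ES markers was at 0 in all libraries. Their part in the ratios of H3f3b, Brdt, H2afz, H2afx, Hist1h1t, H1fnt and Hils1 was not tested.

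The other genes of chromatin remodelling were 88 genes in 6 groups. In SP-like cells 61 reached a mean of 10 CPM, and 0 were at least 2-fold from WT in both mutants, where 1.86% of all genes were lower and 0.0257% higher in both. The most abundant were the readers Morf4l1 (2322, 2260 and 2454 CPM) and Phf7 (2051, 1998 and 2170 CPM), the chaperones Nasp (1838, 1869 and 1911 CPM) and Hspa2 (1329, 1523 and 1496 CPM), and H3f3a, the other H3.3 gene (809, 831 and 824 CPM). Below these stood H2afy, which encodes macroH2A (245, 257 and 268 CPM), the remodellers Baz1a (379, 456 and 482 CPM) and Ep400 (366, 344 and 388 CPM), the proteasome activator Psme4 (254, 246 and 259 CPM), the ubiquitin-conjugating enzyme Ube2b (207, 220 and 219.7 CPM) and the linker histone H1fx (183, 182 and 178 CPM). The linker histone H1f0, under that mean, stood at 6.08, 4.23 and 5.39 CPM. The core histone Hist1h2bp, named after its values were seen, was the 1 gene at least 2-fold lower in KI, at 27.8, 19.7 and 12.3 CPM. Under a mean of 10 CPM, and likewise named after their values were seen, were Cdyl (15.9, 8.18 and 2.63 CPM) and Chd5 (12.9, 6.38 and 2.58 CPM), with KI log2 ratios of -2.22 (-2.55 to -1.89) and -1.95 (-2.29 to -1.61). All 3 were higher in WT RS-like cells. Hist1h2bp stood at 388 CPM there, and the SP-like values of all 3 had the same order of WT, KO and KI as H1fnt, Hils1 and the summed RS and ES markers. The part of those transcripts here was not tested by any comparison.

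In RS-like cells 50 of the 88 genes were measured at that level, with a median log2 ratio of 0.43 in KO and 0.42 in KI against 0.19 and 0.20 over all genes. None was at least 2-fold from WT in both mutants, where 6.1% of all genes were higher and 2.65% lower in both, and Brd8, named after its values were seen, was in KO (9.42 to 26.4 CPM). The remodeller Chd5 stood at 271, 269 and 292 CPM and the chromodomain gene Cdyl at 557, 493 and 504 CPM. The readers Morf4l1 (1197, 1549 and 1863 CPM) and Phf7 (1155, 1270 and 1510 CPM) and the chaperones Nasp (657, 774 and 833 CPM) and Hspa2 (537, 785 and 815 CPM) stood lowest in WT. The same order of WT against the mutants was seen for H3f3a (1058, 1158 and 1175 CPM) and Chd4 (54.0, 73.8 and 67.6 CPM). Hist1h2bp (388, 301 and 274 CPM) and Ube2b (324, 246 and 236 CPM) stood highest in WT. The linker histones H1fx and H1f0 were at 73.8, 77.6 and 64.6 and at 1.14, 2.68 and 2.32 CPM. In ES-like cells 38 genes were measured, and 23 were at least 2-fold higher in both mutants and 0 lower. Of all genes 48.6% were higher and 2.77% lower in both. In each mutant alone 24 of the 38 (63.2%) were higher, against 53.5% (KO) and 52.4% (KI) of all genes. These counts are without TMM scaling. The ES-like TMM factors were 0.606 in WT, 1.29 in KO and 1.28 in KI, so that scaling lowers these ratios. The list was not counted under it. The 23 were 3 of 4 core variants (H2afy, H3f3a and Hist1h2bp), 5 of 8 chaperones (Asf1a, Ubn1, Daxx, Nasp and Hspa2), 4 of 7 readers (Brd2, Brd9, Brwd1 and Morf4l1), 5 of 6 remodellers (Chd4, Smarca5, Smarce1, Ep400 and Baz1a) and 6 of 12 modifiers (Hdac1, Rnf168, Rnf2, Dot1l, Kdm1a and Kdm3a). H3f3a had log2 ratios of 1.83 and 1.77, lower than those of H3f3b, on levels of 348, 1238 and 1185 CPM. The ubiquitin ligase gene Rnf2 had the highest, at 3.37 and 3.46 (18.0, 196 and 208 CPM).

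The genes most like each member in WT were sought among 8677 genes over 13 clusters. H1fnt was followed most closely by Cst8, Asb17 and Actrt2 (Pearson r of 0.998, 0.996 and 0.995) and Hils1 by Tmco2, Cypt1 and Cypt2 (0.993, 0.993 and 0.992). Hist1h1t was nearest to 4930579G24Rik, Tdrd1 and Ccp110 (0.977, 0.975 and 0.971), Hist1h2ba to Rpia, Exosc7 and Gm19583 (0.961, 0.960 and 0.945) and Hist1h2aa to Rnf149, Esco2 and N4bp1 (0.964, 0.963 and 0.958). H2afx was nearest to Emc3, Ccdc172 and Psma2 (0.991, 0.988 and 0.988), H2afz to Cox4i1, Mrfap1 and Nxt1 (0.993, 0.990 and 0.987) and Brdt to Fbxl5, Eed and Exosc10 (0.990, 0.989 and 0.986). H3f3b, whose course had 2 maxima, was nearest to Cfl1, Cep162 and Polr2f (0.967, 0.935 and 0.920). The clusters share 1 library and differ in depth, so these values are a description.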

How the data were processed

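Testicular cells of WT, KO and KI mice were captured on a 10x Genomics instrument, 1 library each. The authors deposited whole-number UMI counts per gene and barcode, unfiltered, made with Cell Ranger, whose version is 2.1.1 in the labels and 4 in the matrix headers, on mm10. Cells were called after the Cell Ranger scheme (profile test at an FDR of 0.01, at least 500 UMIs) and kept with over 500 genes and under 10% mitochondrial UMIs. The profile test took at most 20000 barcodes per library, a limit that only KO reached. Libraries were integrated on 2000 genes with Seurat 5.3.0 and sctransform 0.4.2, without the members and the chromatin gene list, then clustered (100 components, Leiden resolution 0.3, scanpy 1.11.5). A cluster was named where at least 3 markers were higher and the score led by 0.3, or by 0.1 with an own marker among its 10 leading genes, a rule chosen after the clusters were seen. Doublets were marked with Scrublet and kept (147 WT, 4 KO and 10 KI cells), and the marking may not have been equally sensitive in the 3 libraries. Diffusion pseudotime was rooted in cluster 12.

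UMIs were summed per class and library. Exact Poisson and Clopper-Pearson intervals cover counting error only. TMM factors were computed in own code after the published method. Named genes were all members, the 3 genes most like each, the 2 most abundant of each chromatin group and those 2-fold from WT in both mutants. The members and lists were chosen with earlier results of these data known. The ratio code was tested on simulated data.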

Additional observations from a re-analysis of the deposited data

Results flagged for a closer look

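H3f3b stood out because its mutant against WT ratio had opposite signs in RS-like and ES-like cells, in both mutants and under both scalings. The log2 ratio was -0.43 (KO) and -0.54 (KI) in RS-like cells and 2.45 (KO) and 2.52 (KI) in ES-like cells. The RS-like ratio came to 0.02 (KO) and -0.05 (KI) with the members kept for clustering, where the KO sign was the same in both classes, and to -0.07 and -0.17 without integration. With 1 library per genotype the difference between the classes was not tested.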

How the results depend on the processing

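No paired analysis was possible because each genotype has 1 library, and for the same reason no replicate could be left out. The alternatives covered scaling, pseudocount, cell calling, gene minimum, integration, clustering genes, resolution, class rule, doublets and cluster weights, and, chosen after seeing the data, shared barcodes, the naming lead, single clusters and members under 10 CPM. The median over the members in SP-like KO cells, -0.08, moved to 0.071 with equal weight per cluster, 0.022 at resolution 0.6 and 0.031 with a naming lead of 0.1. In ES-like KO cells, 0.88 moved to -0.20 under TMM size factors, 0.39 with a pseudocount of 10 CPM, 1.13 with equal weight per cluster, 0.51 without integration, 1.13 with the members kept for clustering and 0.33 with a marker score per cell. In ES-like KI cells, 0.42 moved to -0.42 under TMM size factors, 1.59 with equal weight per cluster and -0.88 without integration, where only 10 KO and 10 KI cells were left. The RS-like KO median, 0.16, was -0.35 over the members with a mean of at least 10 CPM. Of the 15 single ratios past 2-fold, the 184 values under the alternatives kept the direction in 178, and of the 39 other ratios 427 of 482 values did and 55 did not. The 6 exceptions past 2-fold were H1fnt and Hils1 in SP-like cells without cell calling (0.84 and 1.06 in KO, 0.084 and 0.20 in KI), H2afx in KO (-2.36) and Brdt in KI (-4.29) in ES-like cells without integration. The 2-fold size of H1fnt and Hils1 in SP-like KO cells was not kept with doublets removed (-0.74 and -0.91), equal weight per cluster (-0.90 and -0.85), no integration (-0.60 and -0.26) or a marker score per cell (-0.25 and -0.44), and for Hils1 with a naming lead of 0.1 (-0.95) or without cluster 8 (-0.69). The share of all genes at least 2-fold higher in ES-like cells went from 53.5% to 16.1% (KO) and from 52.4% to 17.2% (KI) under TMM size factors, and the share lower from 3.72% and 3.57% to 18.4% in both. The cause was not tested. Few counts limit the precision for Hist1h2ba and Hist1h2aa in RS-like cells (2 to 14 UMIs).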
